A study of Mus musculus with 4 samples.

Results

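Growing T cells make more ribosomes and more nucleotides, and the transcription factor Myc is a known regulator of both. The genes described here are Myc, 20 genes of ribosome biogenesis, 10 of polyamine and nucleotide synthesis, 2 translation factors and 2 subunits of the mitochondrial chaperonin, 35 in all, chosen by name from the pathway. They, and the lists of other pathway genes below, were chosen with earlier results of these data known, so their counts are descriptions. A gene was read from 1 Affymetrix probe set, the one with the highest mean log2 signal over the 4 arrays among those annotated to that gene alone. This gave 34 of the 35 genes, out of 18193 genes read in this way. Impdh2, a gene of guanine nucleotide synthesis, has no probe set annotated to it alone here and was not analysed here.

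The arrays measured total RNA of 4 CD4 T cell populations from C57BL/6 mice (spleen and lymph nodes, age 8 to 10 weeks), each sorted after culture on GFP for IL-17 and on stained Foxp3, with 1 array per population. For exFoxp3Th17, Foxp3+CD4+ T cells were the start of a culture in Th17 conditions, and IL-17+Foxp3- cells were sorted from it. Th17 cells were cultured and gated alike but started from naive CD4+ T cells. Treg cells came from Foxp3+CD4+ T cells cultured in the presence of IL-2 and were sorted as IL-17-Foxp3+, and Th0 cells came from naive CD4+ T cells under Th0 conditions and were sorted as IL-17-Foxp3-. The labels used here do not say how many mice a population came from or give their sex.

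Myc binds DNA as a dimer with Max, with CACGTG, the E-box, as its preferred site, and Mxd proteins and Mxi1 compete for Max and repress the same sites. Its known targets in lymphocytes include RNA polymerase I subunits, nucleolar proteins that process and modify ribosomal RNA, and enzymes of polyamine and nucleotide synthesis. Nucleoli of resting T cells are small, and activation enlarges them as ribosome production starts.

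Signals are MAS5 intensities in arbitrary units on a linear scale, as the authors deposited them. Each array was scaled to a common mean, so a signal is relative to the rest of its array, and fewer cells of a type and less RNA per cell cannot be told apart. Signals under a floor of 12.1 (the pooled median signal, controls left out) were raised to it before ratios were taken. All 34 genes lay above it on every array. With 1 array per population no test between populations was possible. A call of higher or lower needed a difference of at least 2-fold with the brighter array above the floor, and differences under 2-fold are given as values. In each comparison 11769 genes above the floor on at least 1 array form the background. How far 2 probe sets of a gene can disagree was read from 5721 genes, where the log2 ratios of the brightest and the next set had a robust SD between 0.41 and 0.49, depending on the comparison. This is noise within arrays and holds no spread between cultures, sorts or animals.

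The share of probe sets above the floor was 48.7% on the lowest and 51.2% on the highest array. Foxp3 was at 8.03 in exFoxp3Th17, 6.20 in Th17, 585 in Treg and 4.25 in Th0, so Treg alone was above the floor. Of the other regulatory T cell markers, Ikzf2 was at 158, 48.2, 2115 and 62.2 on the same arrays. Il2ra was at 103, 2178, 2878 and 646, and Ctla4 at 1914, 1943, 2789 and 755. Of the Th17 markers, Il17a did not reach the floor on any of the 4 arrays. Il21 was at 339 in exFoxp3Th17 and 491 in Th17 and below the floor in Treg and Th0. Ccr6 was at 1522.5 in exFoxp3Th17, 329 in Th17, 54.5 in Treg and 19.6 in Th0. All 6 measured CD4 T cell markers lay above the floor, and their summed signal was 12936 in exFoxp3Th17, 9597 in Th17, 8211 in Treg and 10995 in Th0. Of the other cell types, NK cell (1 gene) and erythroid (2 genes) markers lay below the floor throughout, and summed signals ranged from 24.1 to 37.6 for 5 myeloid markers, from 15.8 to 59.9 for 3 B cell markers and from 66.0 to 97.0 for 2 CD8 T cell markers. Their part in the results was not tested. Xist, the RNA of the inactive X chromosome, was at 3766 in exFoxp3Th17 and at 7.73, 10.8 and 7.41 in Th17, Treg and Th0, and the Y-linked Eif2s3y was at 4.66 in exFoxp3Th17 and at 876, 654 and 747 in the same 3 arrays. With 1 array each, this difference and the exFoxp3Th17 population cannot be told apart.

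The E-box was looked for in RefSeq promoters of build GRCm38.p6, which run from 250 bases before to 50 bases after an annotated start. Of the 35 genes, 28 have an entry, and 8 of these (28.6%) hold CACGTG, against 8.09% of all 27025 genes with an entry. Counted by promoter, these were 11 of 38 (28.9%) and 7.15% of 32851. CACGTG reads the same on both strands. The related CACGCG, read on either strand (CACGCG or CGCGTG), was in 8 of the 28 genes (28.6%) and in 10.5% of all genes. Nop2, Nme1, Hspd1, Eif5a, Pes1, Eif4a1, Paics and Impdh2 hold CACGTG. The 250 bases before the start of Nop2, Eif5a and Eif4a1 are shown, as those of the measured genes with the largest difference between exFoxp3Th17 and Th17 that hold the E-box before the start, in a stretch that overlaps no other annotated gene (Nme1 and Hspd1 overlap one, and in Pes1 the E-box is not in the 250 bases before the start). The E-box is in capitals and begins 60 bases before the start of Nop2 (chr6:125131633-125131882, plus strand), 74 before a start of Eif5a (chr11:69921387-69921636, minus strand), which has 6 starts in the table, and 189 before a start of Eif4a1 (chr11:69672424-69672673, minus strand).
Nop2: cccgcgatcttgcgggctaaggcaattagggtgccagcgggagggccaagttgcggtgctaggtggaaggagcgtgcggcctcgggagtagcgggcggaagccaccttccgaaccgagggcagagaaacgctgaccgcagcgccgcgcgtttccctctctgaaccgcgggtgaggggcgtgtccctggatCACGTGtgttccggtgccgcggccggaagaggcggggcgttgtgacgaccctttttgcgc
Eif5a: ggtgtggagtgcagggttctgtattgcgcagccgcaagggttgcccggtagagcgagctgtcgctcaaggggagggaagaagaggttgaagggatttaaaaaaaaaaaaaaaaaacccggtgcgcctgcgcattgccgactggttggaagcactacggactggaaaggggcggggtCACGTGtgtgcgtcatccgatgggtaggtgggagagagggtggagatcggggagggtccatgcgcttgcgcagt
Eif4a1: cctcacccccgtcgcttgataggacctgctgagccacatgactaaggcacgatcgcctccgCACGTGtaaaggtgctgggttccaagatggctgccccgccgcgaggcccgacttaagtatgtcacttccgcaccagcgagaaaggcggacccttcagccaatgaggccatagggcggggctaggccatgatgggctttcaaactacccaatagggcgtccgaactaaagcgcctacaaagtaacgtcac

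A match of these letters is a description of the window and shows no binding. Among the 27 measured genes with an entry, the 7 with CACGTG had a median log2 ratio of -0.83 between exFoxp3Th17 and Th17 (-1.20 to -0.21), with 1 called lower. The 20 without it had a median of -1.06 (-1.94 to 0.90), with 11 called lower, beside 7.27% of all genes. Of the 7, Paics, Nme1, Eif4a1, Eif5a and Hspd1 had a geometric mean signal of 1000 or more. Of the 20, Ncl, Odc1 and Hspe1 did. In that signal class 0 of 9 genes were called, and the split by promoter was not tested apart from signal. Hspe1 and Ppat, without CACGTG, have starts near those of Hspd1 and Paics, which hold it. Myc, Srm, Rrp12, Fbl and Rrs1, all called lower, and Npm1 and Bop1, both within 2-fold, have no entry and are in neither group.

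The main comparison, exFoxp3Th17 against Th17, sets cells side by side that were cultured under like conditions and sorted by the same gate, from different starting cells. The 2 arrays also differ in Xist (3766 and 7.73) and Eif2s3y (4.66 and 876), a difference that cannot be told apart from that of the starting cells. The signals of most of the 34 genes in exFoxp3Th17 were below those in Th17. In all, 17 were lower by 2-fold or more, 17 lay within 2-fold and 0 were higher, where 7.27% of all genes were lower and 7.48% higher. The median log2 ratio of the 34 was -1.0, against 0.03 over all genes, and 31 of the 34 ratios were below 0 (40.6% of all genes) and 3 above 0 (52.2%). Myc, Nop56, Polr1b, Nolc1, Srm and Rrp12 were lower by 3-fold or more, and Wdr12, Odc1 and Npm1 were the 3 genes above 0.

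exFoxp3Th17 was also the lowest of the 4 arrays for 30 of the 34 genes, as it was for 23.9% of all genes. The exceptions were Npm1 and Wdr12, lowest in Treg (21.1% of all genes), and Odc1 and Hspe1, lowest in Th0 (19.6%), while Th17 was the lowest array for 0 of the 34 (19.7%). For Myc, Nop56, Nolc1, Polr1a, Polr1b, Rrp12, Srm and Gart, 8 genes, exFoxp3Th17 lay 2-fold or more below each of the other 3 arrays, as it did for 3.2% of all genes. The highest array was Th17 for 18 genes, Treg for 10, Th0 for 3 and exFoxp3Th17 for 3, against 18.4%, 21.1%, 27.6% and 32.8% of all genes.

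**Figure D1:**
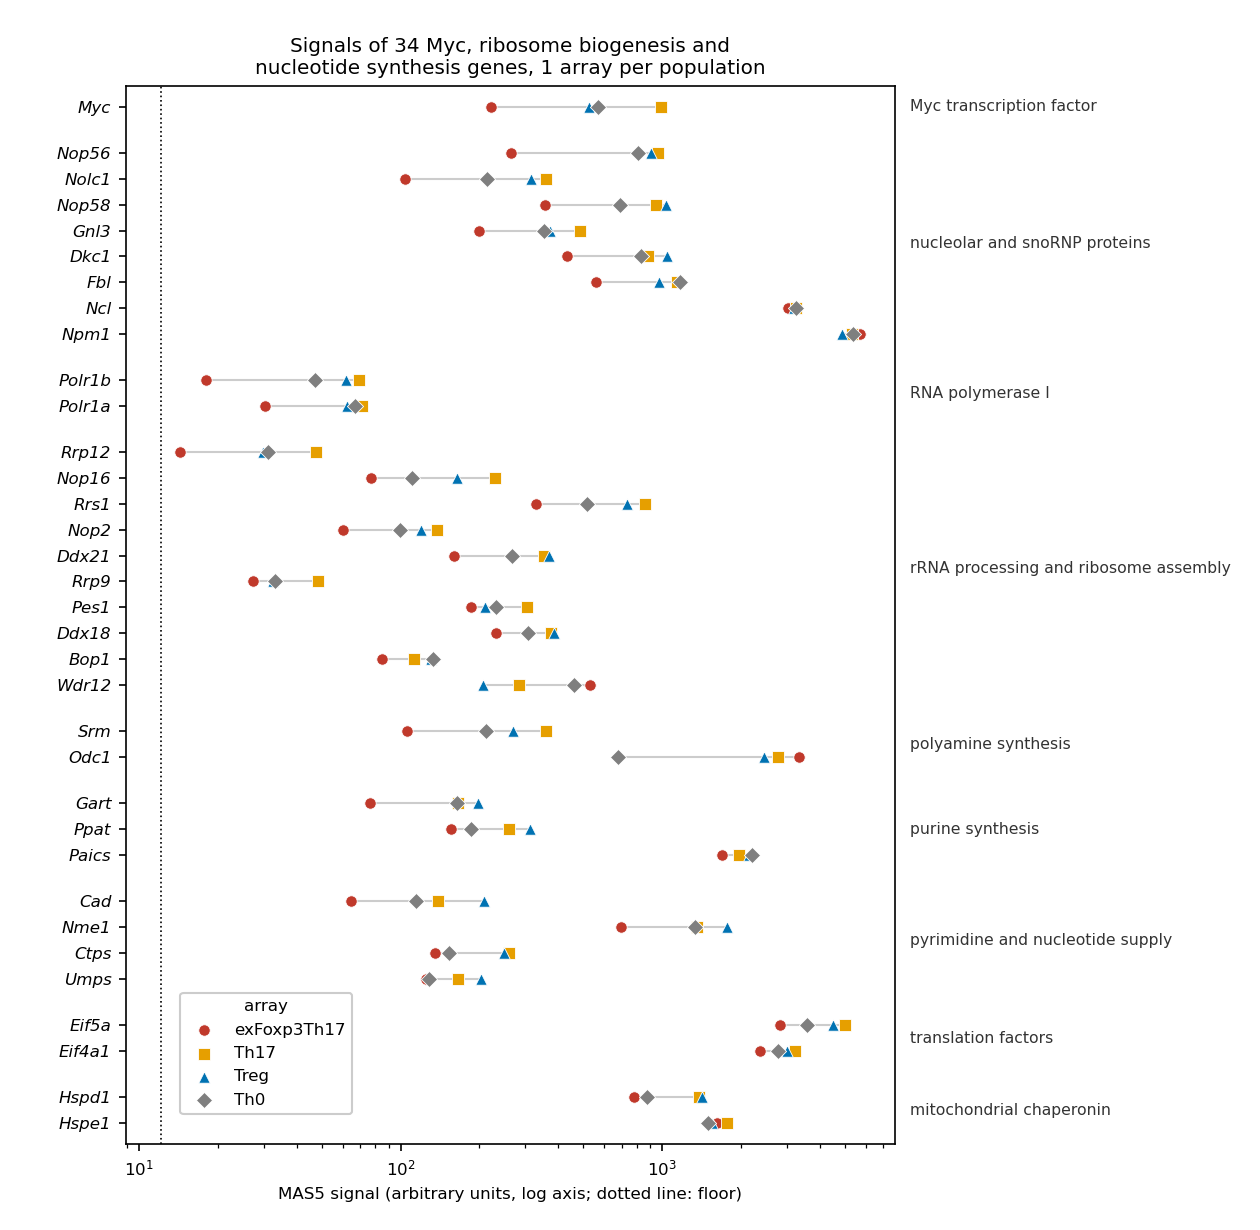
MAS5 signals (log axis) of the 34 genes in exFoxp3Th17, Th17, Treg and Th0, 1 array each, in rows grouped by role; the dotted line is the floor of 12.1. The exFoxp3Th17 point is the leftmost in 30 rows, and the rows of Npm1, Wdr12, Odc1 and Hspe1 are the exceptions.

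Myc itself had a signal of 222 in exFoxp3Th17, 986 in Th17, 527 in Treg and 567 in Th0. It was lowest in exFoxp3Th17 and highest in Th17, with Treg and Th0 close to each other between them. The difference was 4.44-fold between exFoxp3Th17 and Th17 and 2.37-fold between exFoxp3Th17 and Treg. Myc was read from a single probe set, with no other to set beside it.

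By their brightest probe sets, the nucleolar and small nucleolar RNP proteins divided into a larger group that was low in exFoxp3Th17 and a pair that was level. Of the 8 genes, 6 were lower than in Th17 and 2 within 2-fold (median log2 ratio -1.15). Nop56, a core protein of the particles that methylate ribosomal RNA, was at 263 in exFoxp3Th17, 967 in Th17, 910 in Treg and 806 in Th0. That put exFoxp3Th17 3.67-fold below Th17 and apart from 3 arrays that were close together, and the other probe set of Nop56 had a log2 ratio of -2.05. Nop58, its partner in the same particles, was at 358, 949, 1033 and 689 in exFoxp3Th17, Th17, Treg and Th0, 2.65-fold lower in exFoxp3Th17 than in Th17. Fbl, the methyltransferase of these particles, was at 558, 1136, 977 and 1172 in exFoxp3Th17, Th17, Treg and Th0, 2.04-fold below Th17 in exFoxp3Th17.

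Nolc1, a chaperone of small nucleolar RNPs, was at 104 in exFoxp3Th17, 359 in Th17, 316 in Treg and 214 in Th0. It was 3.47-fold lower in exFoxp3Th17 than in Th17, and both its other probe sets were lower by 2-fold or more. Dkc1, the pseudouridine synthase of ribosomal RNA, was at 434, 885, 1049 and 833 in exFoxp3Th17, Th17, Treg and Th0. Its exFoxp3Th17 signal was 2.04-fold below Th17, close to the threshold, and 2.42-fold below Treg. Gnl3, or nucleostemin, a nucleolar GTPase, was at 199, 483, 372 and 353 in exFoxp3Th17, Th17, Treg and Th0, 2.42-fold below Th17 in exFoxp3Th17.

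Ncl and Npm1, the abundant nucleolar proteins nucleolin and nucleophosmin, were the level pair by their brightest probe sets. Npm1 was at 5697 in exFoxp3Th17, 5312 in Th17, 4886 in Treg and 5373 in Th0, a 1.17-fold range over the 4 arrays, and its second probe set also differed little between exFoxp3Th17 and Th17 (log2 ratio 0.03). Ncl was at 3041, 3257, 3195 and 3247 in exFoxp3Th17, Th17, Treg and Th0, a 1.07-fold range. The 3 other probe sets of Ncl above the floor gave lower log2 ratios between exFoxp3Th17 and Th17 than the brightest one (-0.10), at -0.36, -0.83 and -0.96. None of the 4 reached 2-fold in that comparison, but they do not show the same size of difference. Between exFoxp3Th17 and Treg the brightest set of Ncl was at -0.07 and the others, in the same order, at -0.18, -1.53 and -1.21. The dimmer sets at -1.53 and -1.21 passed 2-fold there.

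Both RNA polymerase I genes were lower in exFoxp3Th17. Polr1b, the second-largest subunit of the enzyme that transcribes ribosomal RNA genes, was at 18.1 in exFoxp3Th17, 69.2 in Th17, 61.6 in Treg and 47.1 in Th0. It was 3.83-fold lower in exFoxp3Th17 than in Th17, although 18.1 is close to the floor. Polr1a, the largest subunit, was at 30.2, 71.3, 62.5 and 66.8 in exFoxp3Th17, Th17, Treg and Th0, a 2.36-fold difference from Th17. Its other probe sets above the floor had log2 ratios of -1.06 and -0.79.

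In ribosomal RNA processing and ribosome assembly, 5 of 10 genes were lower in exFoxp3Th17 than in Th17 and 5 within 2-fold (median log2 ratio -0.99). Rrp12, which in yeast takes part in export of the subunits, had the largest difference of the 10, 3.31-fold, but from dim signals of 14.4 in exFoxp3Th17, 47.6 in Th17, 29.8 in Treg and 31.1 in Th0. With a floor of 2 times the value used, its log2 ratio was -0.97 against Th17 and -0.30 against Treg, neither of them 2-fold. Rrs1, which in yeast takes part in building the large subunit, was at 330.5 in exFoxp3Th17, 858 in Th17, 733 in Treg and 517 in Th0. The 2.6-fold difference from Th17 was close to that of its second probe set (log2 ratios -1.38 and -1.23).

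Nop16, a nucleolar protein of large subunit assembly, was at 77.1 in exFoxp3Th17, 229 in Th17, 164 in Treg and 111 in Th0. It was 2.97-fold lower in exFoxp3Th17 than in Th17 and, at the same time, 2.07-fold higher in Th17 than in Th0, a call lost with the floor as a pseudocount (log2 ratio 0.97) and with the mean of its probe sets (0.85). Nop2, a ribosomal RNA methyltransferase whose promoter is among those shown above, was at 59.9, 138, 120 and 99.6 in exFoxp3Th17, Th17, Treg and Th0, 2.29-fold lower in exFoxp3Th17 than in Th17. Ddx21, an RNA helicase of ribosomal RNA transcription and processing, was at 160, 353, 370.5 and 266 in exFoxp3Th17, Th17, Treg and Th0. Its exFoxp3Th17 signal was 2.2-fold below Th17, but its second probe set had a log2 ratio of -0.44. The helicase Ddx18 was at 231, 377, 387 and 307 in exFoxp3Th17, Th17, Treg and Th0, within 2-fold. Rrp9, a protein of the U3 particle, was at 27.1, 48.4, 32.4 and 33.0 on the same arrays, also within 2-fold.

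Wdr12 stood apart from the 2 other proteins of its complex. Bop1, Pes1 and Wdr12 form the PeBoW complex, which is needed to process the RNA of the large subunit. Wdr12 was at 528 in exFoxp3Th17, 283 in Th17, 206 in Treg and 462 in Th0, with exFoxp3Th17 and Th0 high and Th17 and Treg low. Pes1 was at 186, 304, 210 and 231 in exFoxp3Th17, Th17, Treg and Th0, and Bop1 was at 85.1, 113, 130 and 133. Both were lowest in exFoxp3Th17, where Wdr12 was highest. The log2 ratios between exFoxp3Th17 and Th17 were 0.90 for Wdr12, -0.71 for Pes1 and -0.41 for Bop1. Wdr12 has a second, dimmer probe set above the floor, at 173, 45.7, 30.4 and 127 in exFoxp3Th17, Th17, Treg and Th0, which keeps the same order of arrays with a larger log2 ratio of 1.92.

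**Figure D2:**
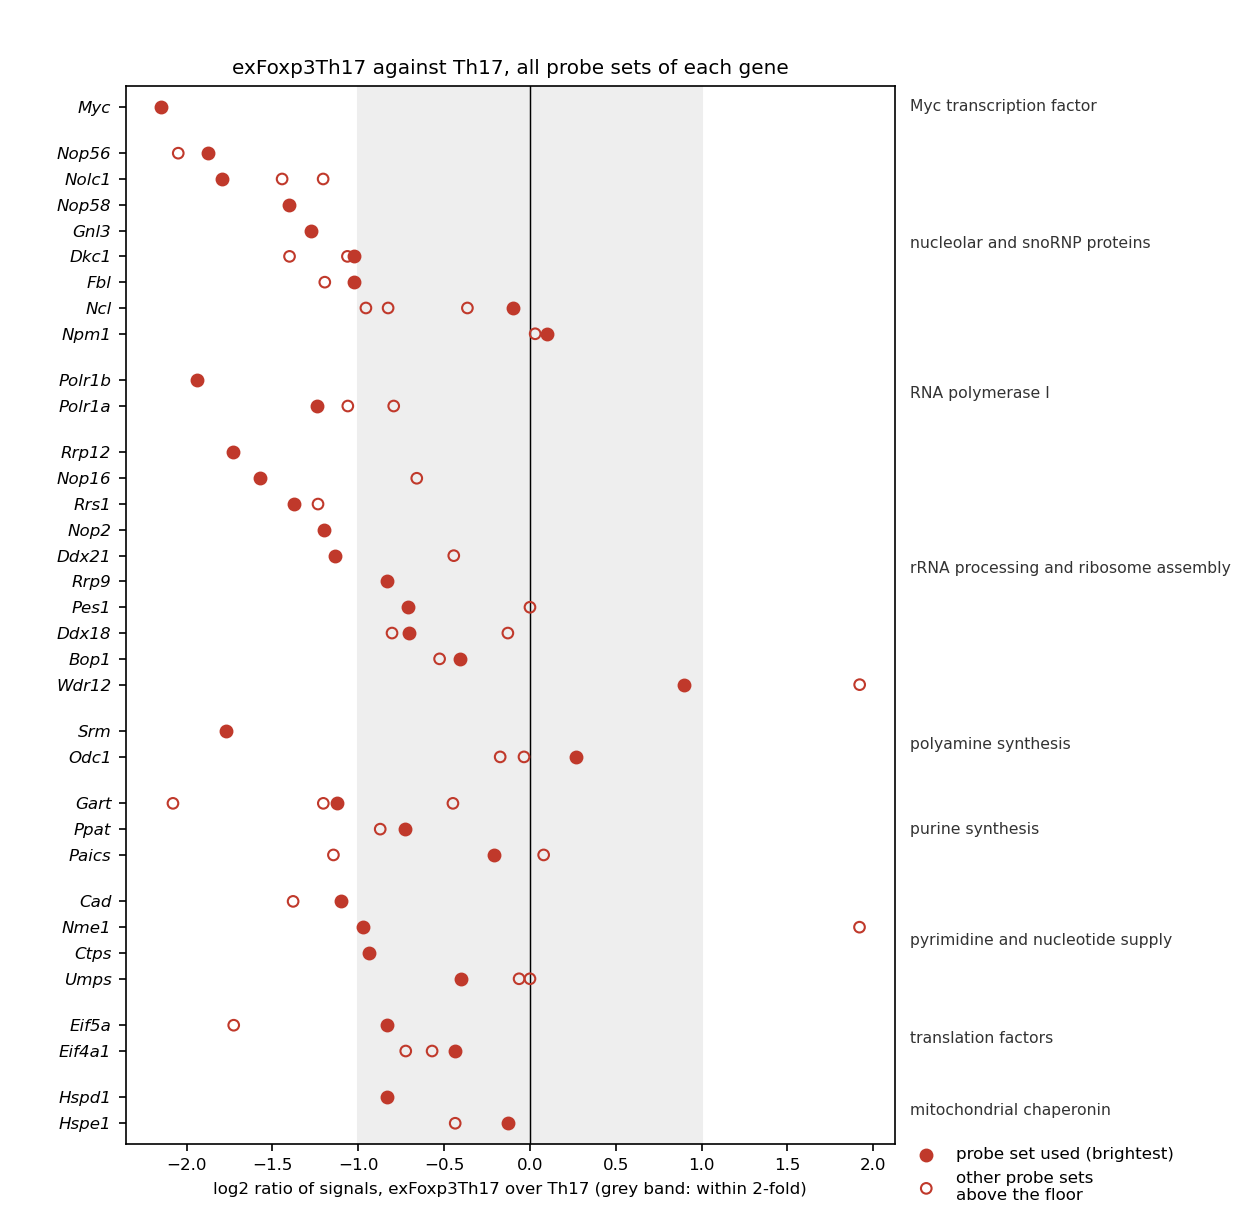
Log2 ratios of exFoxp3Th17 over Th17 for every probe set above the floor of the 34 genes, grouped by role; filled points are the brightest probe set of a gene, open points its others, and the grey band marks ratios within 2-fold. The filled points of 17 genes lie left of the band, and the open points of Wdr12 and Nme1 lie right of it.

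Of the 17 genes lower in exFoxp3Th17 than in Th17, 10 had other probe sets above the floor, 15 in all. All 15 had a ratio below 0, and 11 were lower by 2-fold or more. Over the 24 genes with other probe sets, called or not, 30 of 36 had the sign of the brightest one.

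The enzymes of polyamine synthesis went different ways. Odc1, ornithine decarboxylase, which makes putrescine and is a known Myc target, was at 3335 in exFoxp3Th17, 2771 in Th17, 2449 in Treg and 677 in Th0. It was high on 3 arrays and low in Th0, and its 1.2-fold difference between exFoxp3Th17 and Th17 was within 2-fold, with other probe sets at log2 ratios of -0.03 and -0.17. Srm, spermidine synthase, the next enzyme of the pathway, was at 105 in exFoxp3Th17, 359.6 in Th17, 269 in Treg and 212 in Th0. It was 3.41-fold lower in exFoxp3Th17 than in Th17, so the log2 ratios of the 2 enzymes were 0.27 for Odc1 and -1.77 for Srm.

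Of the purine genes, Gart, which carries 3 enzyme activities of the pathway, was at 76.0 in exFoxp3Th17, 165 in Th17, 197 in Treg and 164 in Th0. It was the only one of the 3 called in the main comparison, at 2.18-fold lower. Ppat, the amidotransferase that opens the pathway, was at 156, 259, 313 and 185 in exFoxp3Th17, Th17, Treg and Th0, 1.66-fold below Th17. Paics, a later enzyme, was at 1702, 1969, 2142 and 2203 in exFoxp3Th17, Th17, Treg and Th0 by its brightest probe set. Its other probe sets disagreed, at log2 ratios of -1.14 and 0.08, so the size of a difference in Paics is uncertain.

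Of the pyrimidine and nucleotide genes, Cad, the enzyme of the first steps of pyrimidine synthesis, was at 64.4 in exFoxp3Th17, 138 in Th17, 208 in Treg and 114 in Th0. It was 2.15-fold lower in exFoxp3Th17 than in Th17, and its second probe set was lower too (log2 ratio -1.38). Ctps, which makes CTP, was at 136, 260.1, 248 and 152 in exFoxp3Th17, Th17, Treg and Th0, and its 1.92-fold difference from Th17 was just short of a call. Umps, the last enzyme of UMP synthesis, was at 125, 165, 202 and 129 in exFoxp3Th17, Th17, Treg and Th0, a 1.32-fold difference from Th17.

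Nme1, a nucleoside diphosphate kinase, cannot be given a direction. Its brightest probe set was at 695 in exFoxp3Th17, 1363 in Th17, 1777 in Treg and 1341 in Th0, 1.96-fold lower in exFoxp3Th17 than in Th17. Its other probe set, of the kind marked _x_at because some of its probes may match other transcripts, was at 1019, 269, 277 and 430.2 in exFoxp3Th17, Th17, Treg and Th0, a log2 ratio of 1.92 in the opposite direction. Nme2, a close relative of Nme1, was at 4694 in exFoxp3Th17 and 3647 in Th17. Whether the second probe set reads Nme2 was not tested.

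The translation factors and the chaperonin differed less. Eif5a, the factor that carries the spermidine-derived hypusine, was at 2824 in exFoxp3Th17, 5025 in Th17, 4520 in Treg and 3591 in Th0, 1.78-fold below Th17. Its second probe set, also an _x_at set, was lower by more (log2 ratio -1.73). Eif4a1, the helicase of cap-dependent initiation, was at 2371, 3211, 3006 and 2767 in exFoxp3Th17, Th17, Treg and Th0, 1.35-fold below Th17, with both other probe sets also within 2-fold. Hspd1, the large subunit of the mitochondrial chaperonin, was at 777 in exFoxp3Th17, 1387 in Th17, 1421 in Treg and 872 in Th0. Hspe1, its small subunit, was at 1623, 1774, 1550 and 1497 in exFoxp3Th17, Th17, Treg and Th0 and moved over a 1.18-fold range.

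The genes with bright probe sets were not called in the main comparison, although they were not all level. Of the 9 genes with a geometric mean signal of 1000 or more (Npm1, Eif5a, Ncl, Eif4a1, Paics, Odc1, Hspe1, Nme1 and Hspd1), 0 were called, while 10 of 14 genes between 200 and 1000 and 7 of 11 under 200 were called lower. Over all genes above the floor, 5.61%, 7.49% and 7.37% were called lower in the same classes. Among the 9, Nme1 (1.96-fold), Hspd1 (1.78-fold) and Eif5a (1.78-fold) came closest to a call.

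**Figure D3:**
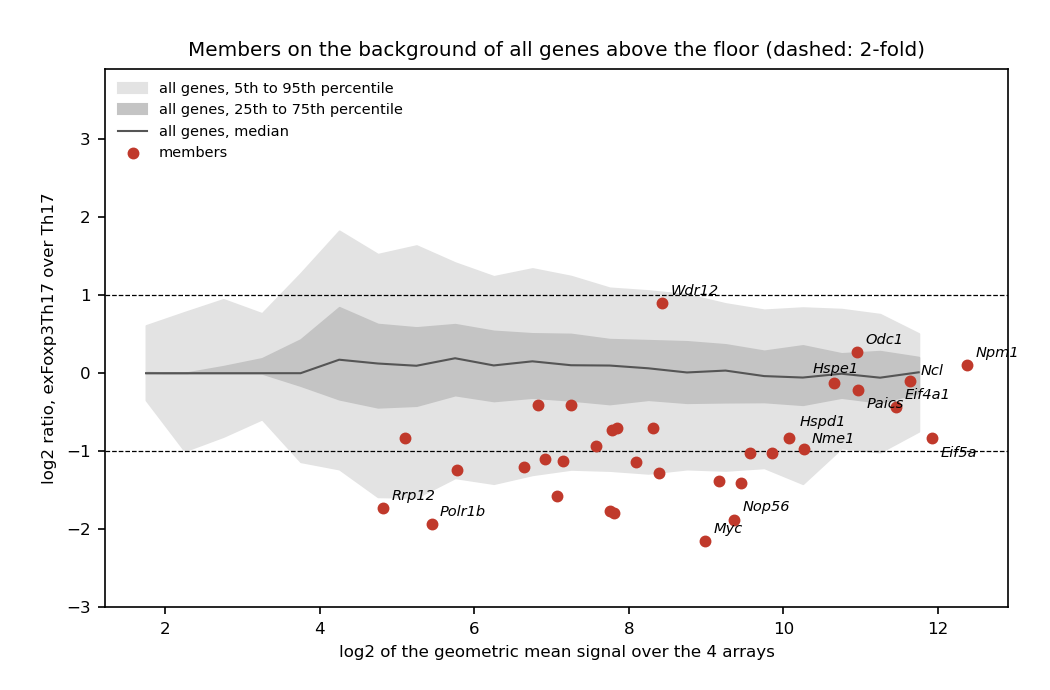
Log2 ratio of exFoxp3Th17 over Th17 against the log2 geometric mean signal over the 4 arrays: red points are the 34 genes, the shaded bands and line are percentiles of all genes above the floor in signal bins of at least 50 genes, and dashed lines mark 2-fold. Most red points lie below the line of medians; of the brightest, Npm1, Ncl, Odc1, Hspe1 and Paics lie between -0.21 and 0.27, while Eif4a1 (-0.44) and Eif5a (-0.83) lie lower.

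Other genes of the same pathways, in 7 lists, were lower in exFoxp3Th17 than in Th17 more often than higher: 28 of 117 genes above the floor were lower, 3 higher and 86 within 2-fold, beside 7.27% lower and 7.48% higher of all genes. The lists differed among themselves. In further ribosome biogenesis genes, 11 of 34 were lower and 0 higher (median log2 ratio -0.91), led by Noc2l (3.33-fold, 52.6 in exFoxp3Th17 against 175 in Th17), Bysl (2.97-fold), Tsr1 (2.91-fold) and Ebna1bp2 (2.82-fold). The 2 other probe sets of Ebna1bp2 had log2 ratios near 0, and the other one of Noc2l had -0.70. In further RNA polymerase I and III genes, 0 of 13 were lower and 1, Taf1c of the polymerase I initiation factor, was higher (2.88-fold, 154 in exFoxp3Th17 against 53.5 in Th17), with a median of -0.14, so the low signals of Polr1a and Polr1b were not shared by this list.

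Within the Myc network itself, Max was level (120 in exFoxp3Th17 and 120 in Th17), as was Mycn (24.5 and 25.3). Mxd4, a Max partner that represses E-box genes, was at 2059 in exFoxp3Th17, 208 in Th17, 225 in Treg and 464 in Th0. That made it 9.89-fold higher in exFoxp3Th17 than in Th17 and far above all 3 other arrays, although 1 of its 3 other probe sets had a log2 ratio of -0.01 while the rest were at 2.66 and 3.38. Mxi1, another such partner, was at 246 in exFoxp3Th17 and 1010 in Th17 (4.11-fold lower, with its second probe set at a log2 ratio of -1.72). Mxd3, a partner expressed in dividing cells, was 2.69-fold lower (49.9 against 134). The list of 10 genes therefore had 2 lower, 1 higher and 7 within 2-fold, with a median of -0.19.

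Of further nucleotide and one-carbon genes, 7 of 25 were lower in exFoxp3Th17 and 1 higher (median -0.63). Mthfd1l, a mitochondrial enzyme that supplies formate for purines, was 7.12-fold lower (132 in exFoxp3Th17 against 937 in Th17). Shmt2, the mitochondrial serine hydroxymethyltransferase, was 3.22-fold lower and the ribonucleotide reductase subunit Rrm2 3.12-fold. The thymidylate synthase Tyms was at least 3.00-fold lower, its exFoxp3Th17 signal being below the floor. The other probe sets of Shmt2 had log2 ratios of -2.21, -0.61 and -0.75, and that of Tyms had 0.00. Ctps2, the relative of Ctps, was the higher one (2.11-fold, 988 against 468). Of the translation factors, 4 of 13 were lower and 0 higher (median -0.30). They were Eif4ebp1, an inhibitor of cap-dependent initiation (4.66-fold), Eef1e1 (3.19-fold), Eif1a (2.55-fold) and the cap-binding protein Eif4e (2.1-fold).

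Of the folding and import genes, 3 of 15 were lower and 0 higher (median -0.69): the mitochondrial import genes Timm8a1 (4.16-fold) and Tomm40 (3.76-fold) and the mitochondrial Hsp70 gene Hspa9 (3.06-fold). By their brightest probe sets, the cytosolic chaperonin genes were all among the 12 within 2-fold. Their log2 ratios ran from -0.88 (Tcp1), -0.72 (Cct3) and -0.69 (Cct6a) to 0.08 (Cct2) and 0.30 (Cct4). Of their other probe sets, some of Cct3 (-1.67 and -1.01) and Cct4 (2.57) passed 2-fold. Of the polyamine and hypusine genes, 1 of 7 was lower, the spermine oxidase Smox (2.73-fold, 357 in exFoxp3Th17 against 972 in Th17), and 0 were higher (median -0.43).

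**Figure D4:**
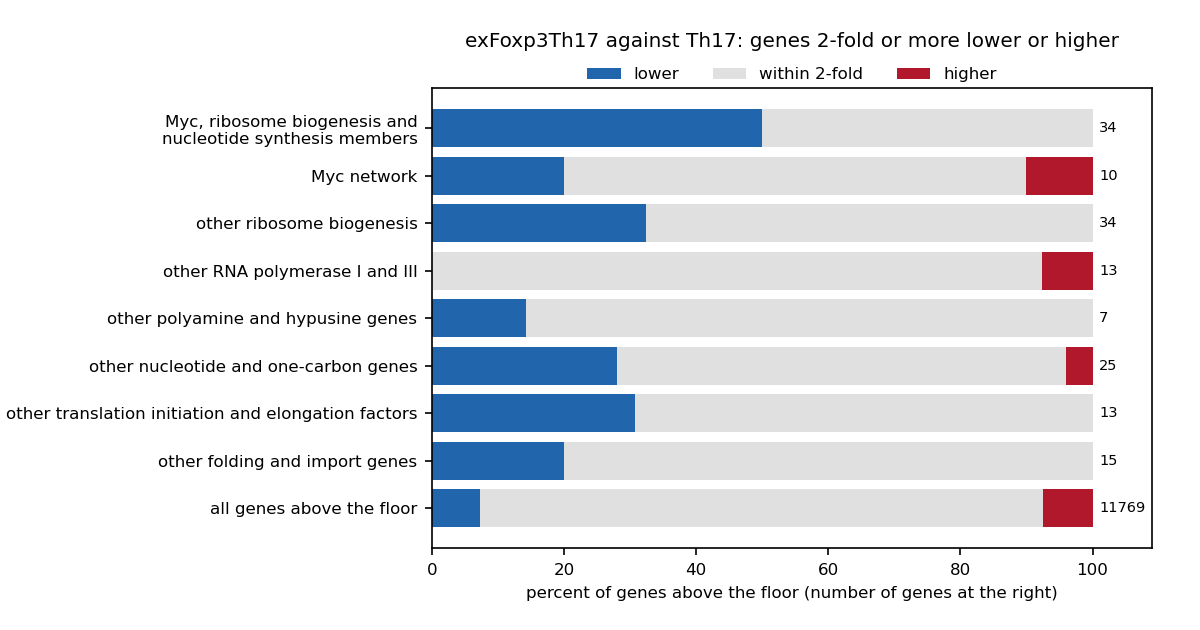
Percent of genes above the floor that were 2-fold or more lower (left), within 2-fold (middle) or higher (right) in exFoxp3Th17 against Th17, for the 34 genes, 7 lists of other pathway genes and all 11769 genes; the number of genes is at the right of each bar. The share called lower is 50% of the 34 genes and 7.27% of all genes.

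The comparison of Th17 with Th0 set the 2 cultures of naive origin side by side, each with its own gate. Here the 34 genes were shifted a little upward, but few reached 2-fold. Odc1 (4.09-fold, 2771 in Th17 against 677 in Th0) and Nop16 (2.07-fold) were higher, 0 were lower and 32 were within 2-fold, where 8.22% of all genes were higher and 6.88% lower. A count of 2 of 34 is near that background. The median log2 ratio was 0.40, against -0.02 over all genes, with 29 of 34 ratios above 0 (42.4% of all genes) and 5 below 0 (51.5%). Myc was 1.74-fold higher in Th17, Ctps 1.71-fold and Srm 1.69-fold, all under the threshold. For Odc1 the other probe sets gave log2 ratios of 2.03 and 1.80. Of the 36 other probe sets of these genes, 22 had the sign of the brightest one in this comparison.

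In the other pathway lists, 12 of 117 genes were higher in Th17 than in Th0, 3 lower and 102 within 2-fold. The share higher, 10.3%, is near the 8.22% of all genes. Smox was 12.4-fold higher (972 in Th17 against 78.5 in Th0). In the Myc network, Mxi1 was 6.86-fold and Mxd1, a further repressing partner of Max, 2.78-fold higher. Among translation factors, Eif4ebp1 was 4.14-fold, Eif1a 2.82-fold and Eef1e1 2.11-fold higher. Prps1, which makes the ribose phosphate donor of nucleotide synthesis, was 3.49-fold and Mthfd1l 2.49-fold higher. The remaining higher genes were Rrp1b (2.61-fold) and Utp4 (2.1-fold) of ribosome biogenesis, Hspa9 (2.22-fold) and Taf1d of the polymerase I initiation factor (2.13-fold). Mxd3 (2.86-fold), Tyms (2.42-fold) and Mxd4 (2.23-fold) were the lower ones.

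Between exFoxp3Th17 and Treg, both of Foxp3+ origin, 16 of the 34 genes were lower, 1 was higher and 17 were within 2-fold, where 9.94% of all genes were lower and 11.3% higher. The median log2 ratio was -0.95, against 0.02 over all genes, with 30 of 34 ratios below 0 (43.8% of all genes) and 4 above 0 (51.3%). The exFoxp3Th17 array is the same as in the main comparison, so the counts are not separate evidence. Nop56 (3.46-fold), Polr1b (3.41-fold), Cad (3.23-fold) and Nolc1 (3.05-fold) were lower by 3-fold or more, and Wdr12 was 2.56-fold higher (528 in exFoxp3Th17 against 206 in Treg). Fbl, Gnl3 and Nop2, lower than in Th17, did not reach 2-fold against Treg, while Ppat and the brightest probe set of Nme1 did. The other probe set of Nme1 had a log2 ratio of 1.88 against Treg, so the call of Nme1 has no settled direction. The values for Nop2 (59.9 in exFoxp3Th17 against 120 in Treg) and Ppat (156 against 313) lie on either side of the threshold.

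Other pathway genes gave 28 of 117 lower, 4 higher and 85 within 2-fold in exFoxp3Th17 against Treg, beside 9.94% lower and 11.3% higher of all genes. Mthfd1l was 5.4-fold lower (132 in exFoxp3Th17 against 710 in Treg), Rrm2 4.89-fold, Rrm1 4.17-fold and Tyms at least 4.03-fold. In ribosome biogenesis 12 of 34 were lower, led by Lyar (3.05-fold), Noc2l (2.86-fold), Ebna1bp2 (2.63-fold) and Gar1 (2.4-fold). Mxd3 was 4.05-fold lower, Timm8a1 3.91-fold, Eef1e1 2.45-fold, Eif4ebp1 2.44-fold, Tomm40 2.41-fold, Eif1a 2.29-fold and Hspa9 2.14-fold. Mxd4 was 9.16-fold higher (2059 against 225), Smox 3.87-fold, Taf1c 2.47-fold and Eif4b, an initiation factor, 2.25-fold.

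Between Treg and Th0, few of the 34 genes reached 2-fold. Odc1 was 3.62-fold higher (2449 in Treg against 677 in Th0), Wdr12 was 2.24-fold lower (206 against 462) and 32 genes were within 2-fold, where 5.56% of all genes were higher and 4.95% lower. The median log2 ratio was 0.30, against -0.01 over all genes, with 23 of 34 ratios above 0 (44% of all genes) and 11 below 0 (50.9%). Myc was level (527 in Treg and 567 in Th0). Of the 36 other probe sets, 26 had the sign of the brightest one here. Of the other pathway genes, 4 of 117 were higher, 1 lower and 112 within 2-fold, with no larger share than among all genes in either direction: Mxd1 3.75-fold, Mxi1 and Eif1a 2.53-fold and Eif4ebp1 2.17-fold were higher and Mxd4 2.06-fold lower.

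Setting the 2 origins side by side uses 4 separate arrays. For 27 of the 34 genes the log2 ratio was above 0 in Th17 against Th0 and below 0 in exFoxp3Th17 against Treg, a pattern seen in 17.9% of all genes. This counts signs only, and Ncl (0.005), Gart (0.009) and Nme1 (0.02) were near 0 in Th17 against Th0. Of the other probe sets, 22 of 36 kept the sign of the brightest one in Th17 against Th0. In exFoxp3Th17 against Treg, 31 of 36 did. The 2 genes above 0 in both were Odc1 and Hspe1 (23% of all genes). Myc had log2 ratios of 0.80 (Th17 over Th0) and -1.25 (exFoxp3Th17 over Treg), Nop56 of 0.26 and -1.79, Polr1b of 0.56 and -1.77, and Srm of 0.76 and -1.35. Wdr12 ran the other way, at -0.71 and 1.36. Treg cells were cultured with IL-2 and Th0 cells under Th0 conditions, so the 2 comparisons differ in more than the origin of the cells. Xist and Eif2s3y also differ between exFoxp3Th17 (3766 and 4.66) and Treg (10.8 and 654). They are alike in Th17 (7.73 and 876) and Th0 (7.41 and 747). The difference between the 2 comparisons was not tested.

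**Figure D5:**
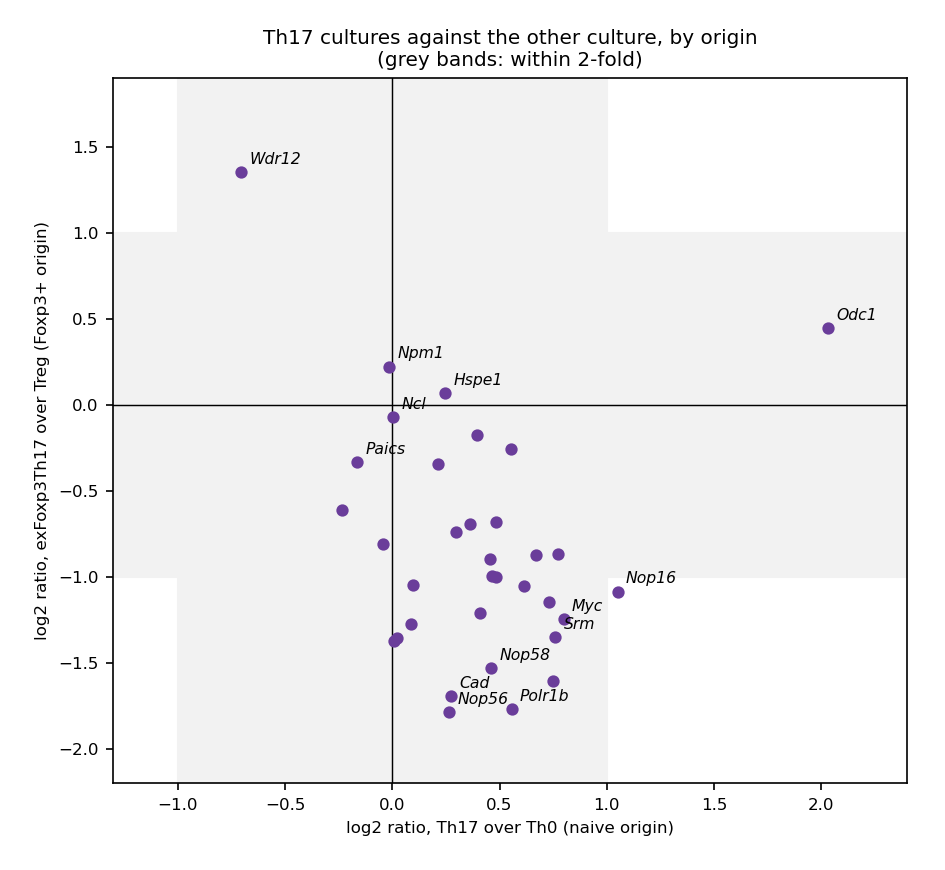
Log2 ratio of exFoxp3Th17 over Treg (vertical) against that of Th17 over Th0 (horizontal) for the 34 genes; grey bands mark ratios within 2-fold. Of the 34 points, 27 lie right of 0 and below 0, with Nop16 outside both bands there, Odc1 far to the right and Wdr12 at the upper left.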

How the data were processed

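Total RNA (1 µg per sample, per the labels' protocols) of 4 sorted populations, 1 array each, was labelled with biotin and hybridised to Affymetrix arrays. The values the authors deposited are linear signal intensities. The submitters' processing notes name MAS5, an Affymetrix method that summarises each probe set and scales the array, with no version in the sources used here. The trimmed mean of the deposited intensities was between 99.2 and 99.3 on the 4 arrays, and this scaling was kept.

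The table holds 45101 probe sets, 64 of them controls. GEO's platform annotation named 34945 probe sets by a single gene and 932 by several; the several-gene sets were left out. Old symbols were replaced by way of gene identifiers with those of a RefSeq table, as were 3 list symbols. Values under the floor of 12.1 were set to it, and ratios are differences of log2 signals. With 1 array per population no test was made. The number of arrays limits the precision. The calling step was tried on simulated data with known differences, placed only in genes well above the floor. Simulated differences of 2-fold were often missed. The simulation checks the step, not the populations, and does not cover genes near the floor.

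The genes and lists were chosen with earlier results of these data known. All measured genes of the group are named; of other pathway genes, up to 4 called ones per list and comparison, those with the largest difference, plus Max and Mycn. Ctps2, Tcp1, Cct2, Cct3, Cct4, Cct6a, Nme2, Xist, Eif2s3y, Ikzf2, Il2ra, Ctla4, Il21 and Ccr6 were named after their values were seen. Alternatives were other floors, a pseudocount, 2 scalings, other uses of a gene's probe sets and other thresholds. Python 3.11.15, pandas 2.3.3 and numpy 2.4.6 were used.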

Additional observations from a re-analysis of the deposited data

Results flagged for a closer look

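Nop16, a nucleolar protein of large subunit assembly, differed by 2-fold or more in opposite directions in the 2 origins. Its log2 ratio was 1.05 for Th17 over Th0, both of naive origin, and -1.09 for exFoxp3Th17 over Treg, both of Foxp3+ origin. Both calls ended with the floor as a pseudocount (0.97 and -0.98) and with the mean of its probe sets (0.85 and -0.54). Each value rests on 2 arrays, and the difference between them was not tested. The other probe set of Nop16 lay near the floor (19.1 in Th17 as its highest signal), with log2 ratios of 0.66 and 0.00 in the same comparisons. Over all genes above the floor, 1.36% were higher in Th17 than in Th0 and lower in exFoxp3Th17 than in Treg by 2-fold or more.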

How the results depend on the processing

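The median log2 ratio of the 34 genes kept its sign under 6 other settings that leave the threshold as it is and under 1 added after the data were seen. The added one set aside probe sets marked _x_at and _s_at where a gene had one of another kind, so Eif5a kept its _s_at set. The median ranged from -1.06 to -0.97 for exFoxp3Th17 against Th17, 0.38 to 0.46 for Th17 against Th0, -1.04 to -0.84 for exFoxp3Th17 against Treg and 0.27 to 0.39 for Treg against Th0. Under the same alternatives, 15 to 18 genes were lower in exFoxp3Th17 than in Th17 and 12 to 17 lower than in Treg. The 12 came from the floor as a pseudocount, which lost Nop16, Polr1a, Ppat and Rrp12, and from averaging all probe sets of a gene, which lost Ddx21, Nme1, Nop16 and Polr1a.

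The other counts are small and moved easily. With the floor as a pseudocount, 1 gene was higher in Th17 than in Th0. With probe sets marked _x_at and _s_at set aside where a gene had one of another kind, 3 genes were higher there. With that average, 1 gene was higher in exFoxp3Th17 than in Th17, and 1 was higher and 1 lower in Th17 than in Th0. That setting also turned the log2 ratio of Nme1 between exFoxp3Th17 and Treg to 0.26, because its 2 probe sets oppose each other. With the share of all genes in parentheses, at 3-fold 6 genes were lower in exFoxp3Th17 than in Th17 (2.9%), 4 lower (4.58%) and 0 higher (4.72%) than in Treg, 1 was higher in Th17 than in Th0 (4.04%), and 0 were lower in Treg than in Th0 (1.44%). At 1.5-fold, 1 was higher in exFoxp3Th17 than in Th17 (18.1%), 9 were higher (15.4%) and 1 lower (17.2%) in Th17 than in Th0, 25 were lower in exFoxp3Th17 than in Treg (18.3%) and 6 were higher in Treg than in Th0 (12%). Of 266 recomputed ratios of called genes, 253 moved by less than the probe set noise, 12 by more and 1 changed sign. No paired analysis was possible because each population has 1 array.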

Other observations

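Hspd1 and Hspe1 are neighbours on chromosome 1 in opposite orientation. In build GRCm38.p6, 1 annotated start of Hspd1 lies 95 bases inside Hspe1 and the other 216 bases before the start of Hspe1. Though so close, the signal of Hspd1 ranged over 1.83-fold and that of Hspe1 over 1.18-fold on the 4 arrays. The log2 ratio between exFoxp3Th17 and Th17 was -0.84 for Hspd1, and for Hspe1 it was -0.13 by its brightest and -0.44 by its other probe set. Ppat and Paics on chromosome 5 also run in opposite directions, their first 276 bases overlapping, and had log2 ratios of -0.73 and -0.21. For Ppat the other probe set was at -0.87, and those of Paics were at -1.14 and 0.08. Whether the unequal ratios lie in the RNA or in the probe sets was not tested.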
